A study of Homo sapiens with 6 samples.

Results

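The core genes of planar cell polarity (PCP) were examined in MDA-MB231 cells with and without an shRNA against Ror1. They were the 10 genes VANGL1, VANGL2, CELSR1, CELSR2, CELSR3, PRICKLE1, PRICKLE2, PRICKLE3, SCRIB and ANKRD6, taken by symbol from the 57445 genes of the deposited expression table, where each symbol matched 1 Ensembl identifier. MDA-MB231 is a breast cancer cell line of the triple-negative subtype. It was compared in 2 conditions with 3 libraries each, cells carrying a non-silencing shRNA (shCTL) and cells carrying a Ror1 shRNA (shRor1). Both hairpins came from the lentiviral pGIPZ vector, and both conditions were selected with 2 µg/ml puromycin, so that the vector and the selection were shared and 1 targeting sequence stood for the knockdown. The sample labels call the control an empty vector, whereas the series design and the methods name a control shRNA, and DMSO is part of the column name of the controls but not of shRor1. A difference in solvent and the difference in shRNA cannot be told apart.

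PCP is the system by which cells of a sheet align in the plane of the tissue, and in migrating cells the same proteins bias protrusion and turnover of the cytoskeleton. CELSR proteins are large atypical cadherins that meet across a cell border, VANGL proteins are membrane proteins that recruit the cytoplasmic PRICKLE proteins on 1 side of the cell, and Frizzled receptors with Dishevelled gather on the other. SCRIB is a scaffold with PDZ domains that binds VANGL, and ANKRD6, also named Diversin, binds Dishevelled. Wnt5a acting through Ror receptors is known as a cue for this system, and the question addressed by the comparison was therefore which of these genes were transcribed in the cells and whether their mRNA levels differed after Ror1 knockdown.

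Values are TPM, the abundance of transcripts per gene length relative to a fixed total for each library, so that levels of different genes can be set against each other. The columns carry no replicate number, and libraries are named by their order within a condition. The cells were checked by markers. Vimentin (VIM) ran from 2399 to 2920 TPM and AXL from 347 to 438 TPM, while the estrogen receptor gene ESR1 stayed between 0.10 and 0.21 TPM and PGR between 0 and 0.01 TPM. All 6 mesenchymal and basal markers reached a mean of 1 TPM, with a summed level of 4173 to 4392 TPM in shCTL and 4225 to 4646 TPM in shRor1. Of the luminal markers 6 of 8 reached it (summed 115 to 155 TPM in shCTL and 119 to 171 TPM in shRor1), of the fibroblast markers 3 of 4 (10.5 to 17.7 and 10.3 to 15.6 TPM, with LUM at 0), of the leukocyte markers 1 of 4, the lysosomal gene CD68 (169.9 to 203 and 138 to 239 TPM, with CD3E at 0 to 0.03), and of the endothelial markers 0 of the 2 found in the table (0.42 to 1.66 and 0.39 to 1.77 TPM). Their part in the results below was not tested.

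For the targeted gene ROR1 the controls gave 15.42, 13.49 and 20.56 TPM and the shRor1 libraries 9.34, 11.93 and 14.85 TPM. The means were 16.5 ± 3.65 and 12.04 ± 2.76 TPM (SD, n = 3 each), 2 of the 3 shRor1 libraries lay below all controls, and the ranges overlapped (exact two-sided permutation test, p = 0.2). The limma log2 fold change was -0.43, with an interval from 0.542 to 1.02 times the control (adjusted p = 0.984). It was below 0 under all 14 alternatives. No filter, no trend, identifiers summed by symbol and the covariate described below could not change it. The unadjusted p of ROR1 was below 0.05 in 5 of the 14 alternatives: both other scalings, without the second shCTL library, without the third shRor1 library, and with that covariate. The covariate stands for the leading difference between libraries. It was taken from these same libraries after the condition was fitted, which by itself lowers the standard error of genes that follow it. With single libraries left out the log2 fold change ran from -0.58 (without the third shRor1 library) to -0.26 (without the third shCTL library) and was -0.27 without the first shRor1 library. The size of the knockdown at the mRNA level was thus uncertain, which bears on each comparison of the PCP genes. The paper reports the Ror1 knockdown in these cells by Western blot, at the protein level, which the data used here do not measure. In bulk RNA, fewer cells that express a gene and less RNA per cell cannot be told apart.

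The 10 genes fell into steps of expression. VANGL1 and SCRIB stood on top with means over the 6 libraries of 48.2 and 47.9 TPM. CELSR1 (10.7 TPM) and PRICKLE1 (9.96 TPM) came next, then ANKRD6 (6.45 TPM), CELSR2 (5.11 TPM), PRICKLE3 (4.05 TPM), CELSR3 (2.45 TPM) and PRICKLE2 (1.85 TPM). VANGL2 closed the order at 0.0067 TPM. Among the 16554 genes that reached 1 TPM in 3 or more libraries, 78.4% had a mean at or below that of VANGL1, 46.3% at or below that of CELSR1 and 14.6% at or below that of PRICKLE2. 9 of the 10 genes met this criterion and were tested, and VANGL2 did not.

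Several neighbours in this order were not separated by their spread. VANGL1 was above SCRIB in 4 of 6 libraries, and their ranges overlapped. CELSR1 was above PRICKLE1 in 5 of 6, ANKRD6 above CELSR2 in 5 of 6 and CELSR2 above PRICKLE3 in 4 of 6, each with overlapping ranges. CELSR3 exceeded PRICKLE2 in 6 of 6 libraries, although the ranges overlapped. Gaps without overlap lay between SCRIB and CELSR1 (4.47 times in the means), between PRICKLE1 and ANKRD6 (1.54 times), between PRICKLE3 and CELSR3 (1.65 times) and between PRICKLE2 and VANGL2. The lowest PRICKLE1 value was 8.21 TPM against 7.51 TPM for the highest of ANKRD6. For PRICKLE3 and CELSR3 these were 3.46 and 3.23 TPM. PRICKLE1, ANKRD6 and PRICKLE3 overlap expressed genes on the opposite strand, described below, which makes these narrow gaps less certain.

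**Figure D1:**
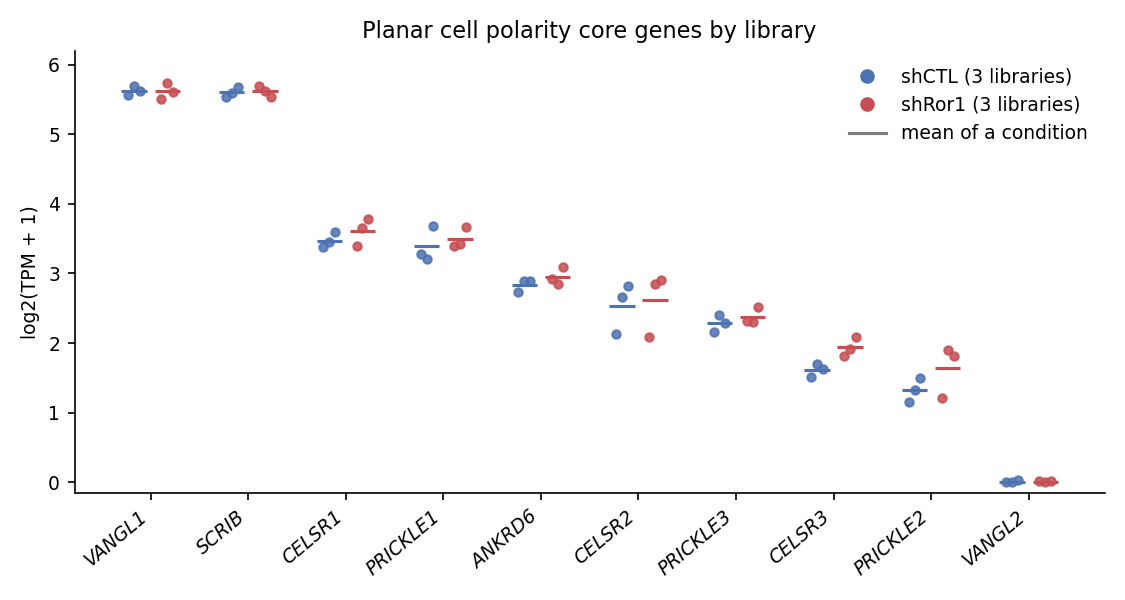
Level of the 10 PCP core genes in each library as log2(TPM + 1), ordered by mean, with shCTL in blue, shRor1 in red and a bar at the mean of each condition (3 libraries each). VANGL1 and SCRIB lie above all others at means of 48.2 and 47.9 TPM, VANGL2 lies at 0 to 0.02 TPM, and CELSR3 is the gene whose red points all lie above the blue ones.

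The VANGL pair showed the sharpest contrast between paralogs. VANGL1 (ENSG00000173218.9, GRCh37 chr1:116184591-116240845, plus strand, 8 exons in its canonical transcript) had 46.32, 50.51 and 48.11 TPM in shCTL and 44.32, 52.34 and 47.72 TPM in shRor1. The lowest and the highest of the 6 values both belonged to shRor1, and the ranges overlapped widely. VANGL2 (ENSG00000162738.5, chr1:160370354-160398460, plus strand, 8 exons) had 0, 0 and 0.02 TPM in the controls, and 0.01, 0 and 0.01 TPM with the Ror1 shRNA. VANGL1 therefore made up at least 99.96% of the VANGL TPM in every library. Reads of 50 bases could tell the genes apart, since 0 of the 8622 words of 50 bases in the VANGL1 transcript occurred in an annotated transcript of another gene, and likewise 0 of 5305 for VANGL2. Their coding sequences (1575 and 1566 bases with the stop codon) were identical at 70.8% of 1559 aligned bases.

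The ends of the 2 coding sequences are printed because the carboxy terminus is the part of VANGL that binds the PDZ domains of SCRIB. Capitals mark the last 4 codons with the stop codon, in GRCh37 on the plus strand, at chr1:116233956-116234000 for VANGL1 and chr1:160395124-160395168 for VANGL2.
VANGL1: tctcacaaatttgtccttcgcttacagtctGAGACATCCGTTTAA
VANGL2: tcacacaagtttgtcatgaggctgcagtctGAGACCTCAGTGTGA
The 2 stretches of 45 bases were identical at 33 positions, and the 15 bases in capitals at 11. The 4 codons in capitals before the stop codon encode the same amino acids in both genes (Glu-Thr-Ser-Val).

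The promoters were compared as a feature outside the expression values. Promoters of 8 of the 10 genes were taken from the RefSeq promoter table (GRCh38.p14, 250 bases before to 50 bases after each start). CELSR1 and SCRIB were not part of this comparison, which does not mean that RefSeq lists no promoter for them. The VANGL1 promoter at the more upstream of its 2 starts (chr1:115641720-115642019, plus strand) and the VANGL2 promoter (chr1:160400314-160400613, plus strand) are shown as the pair with the largest difference in level. The PRICKLE1 promoter (chr12:42483566-42483865, minus strand) and the PRICKLE2 promoter at the more upstream of its 2 starts (chr3:64268124-64268423, minus strand) are shown as the paralogs that differed most in the number of CG words. Capitals mark each CG word, which reads the same on both strands.
VANGL1: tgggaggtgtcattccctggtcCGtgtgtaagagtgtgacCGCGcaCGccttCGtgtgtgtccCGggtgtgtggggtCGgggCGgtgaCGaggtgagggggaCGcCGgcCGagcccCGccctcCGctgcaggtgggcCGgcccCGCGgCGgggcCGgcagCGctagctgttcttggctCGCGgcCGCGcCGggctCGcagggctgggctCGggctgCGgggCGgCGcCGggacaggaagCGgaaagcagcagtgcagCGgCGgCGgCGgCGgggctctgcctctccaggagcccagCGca
VANGL2: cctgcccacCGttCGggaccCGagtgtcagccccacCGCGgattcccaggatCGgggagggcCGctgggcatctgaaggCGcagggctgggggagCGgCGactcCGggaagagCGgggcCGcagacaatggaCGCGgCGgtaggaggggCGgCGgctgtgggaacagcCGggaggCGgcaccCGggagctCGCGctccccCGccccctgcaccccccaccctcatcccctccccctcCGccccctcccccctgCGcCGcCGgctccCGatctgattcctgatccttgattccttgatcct
PRICKLE1: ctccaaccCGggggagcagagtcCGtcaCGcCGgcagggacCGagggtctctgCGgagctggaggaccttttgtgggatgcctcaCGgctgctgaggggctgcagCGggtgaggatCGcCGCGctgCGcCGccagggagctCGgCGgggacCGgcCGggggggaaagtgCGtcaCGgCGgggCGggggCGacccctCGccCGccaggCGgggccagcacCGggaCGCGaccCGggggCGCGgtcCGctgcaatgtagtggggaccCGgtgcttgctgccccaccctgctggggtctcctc
PRICKLE2: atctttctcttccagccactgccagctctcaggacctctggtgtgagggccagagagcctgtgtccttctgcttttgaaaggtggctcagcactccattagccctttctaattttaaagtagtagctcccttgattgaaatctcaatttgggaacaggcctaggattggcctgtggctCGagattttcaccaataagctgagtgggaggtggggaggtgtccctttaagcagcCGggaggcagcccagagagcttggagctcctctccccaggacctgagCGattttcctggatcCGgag
CG occurred 38 times in the VANGL1 promoter and 29 times in that of VANGL2. Of all 35116 promoters of this length in the table, 9.91% and 24.2% held at least as many, the median was 14, and 96.0% held at least 1. The expressed VANGL1 and the barely detected VANGL2 thus both held more CG words than the median promoter. PRICKLE1 held 33 and PRICKLE2 held 4, a number that 75.5% of all promoters reached. These counts depend on the starts listed by RefSeq, which were not matched to the GRCh37 gene spans given here. CELSR2 and CELSR3 held 30 each. Genes with several starts varied, with 32 at the other VANGL1 start, 7 at the other PRICKLE2 start, 32 and 12 at the 2 starts of PRICKLE3, and 2 to 34 at the 4 starts of ANKRD6.

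SCRIB (ENSG00000180900.12, GRCh37 chr8:144873090-144897943, minus strand, 37 exons) was as even as VANGL1. It had 45.39, 47.42 and 50.41 TPM in shCTL and 50.62, 48.24 and 45.53 TPM in shRor1, so that both conditions spanned nearly the same range. A spread within conditions as small as that of SCRIB (SD of 0.075 on the log2 scale) or smaller was found in 11.9% of tested genes. ANKRD6 (ENSG00000135299.12, chr6:90142871-90343553, plus strand, 16 exons) had 5.62, 6.44 and 6.40 TPM in shCTL and 6.55, 6.17 and 7.51 TPM in shRor1. For ANKRD6, 2 of 3 shRor1 libraries exceeded all controls.

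Within the CELSR family CELSR1 was the main transcript. CELSR1 (ENSG00000075275.12, chr22:46756731-46933517, minus strand, 35 exons) had 9.37, 9.89 and 11.05 TPM in shCTL and 9.54, 11.64 and 12.82 TPM in shRor1. CELSR2 (ENSG00000143126.7, chr1:109792161-109818373, plus strand, 34 exons) had 3.36, 5.33 and 6.03 TPM in shCTL and 3.26, 6.2 and 6.50 TPM in shRor1. In both conditions the first library was far below the other two, and the within-condition SD of CELSR2 (0.41 on the log2 scale) exceeded that of 93.8% of tested genes or matched it. CELSR3 (ENSG00000008300.10, chr3:48673896-48700319, minus strand, 35 exons) had 1.86, 2.24 and 2.09 TPM in shCTL and 2.52, 2.78 and 3.23 TPM in shRor1. All 3 shRor1 values of CELSR3 lay above all 3 controls. CELSR1 took 56.5% to 64.2% of the summed CELSR TPM, CELSR2 21.3% to 31.5% and CELSR3 10.9% to 16.4%. The CELSR3 share was 10.9% to 12.8% in shCTL and 13.5% to 16.4% in shRor1, without overlap.

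PRICKLE1 led the PRICKLE family. PRICKLE1 (ENSG00000139174.6, chr12:42850559-42984157, minus strand, 8 exons) had 8.75, 8.21 and 11.82 TPM in shCTL and 9.50, 9.75 and 11.74 TPM in shRor1. The third library was the highest in both conditions, and the ranges overlapped. PRICKLE2 (ENSG00000163637.7, chr3:64077912-64431152, minus strand, 8 exons) had 1.22, 1.5 and 1.81 TPM in shCTL and 1.31, 2.74 and 2.52 TPM in shRor1, with 2 of 3 shRor1 libraries above all controls. PRICKLE3 (ENSG00000012211.8, chrX:49031151-49042981, minus strand, 9 exons) had 3.46, 4.27 and 3.89 TPM in shCTL and 3.99, 3.95 and 4.72 TPM in shRor1, with 1 of 3 above all controls. Of the summed PRICKLE TPM, PRICKLE1 took 58.7% to 67.5%, PRICKLE3 22.2% to 30.5% and PRICKLE2 8.85% to 16.7%.

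**Figure D2:**
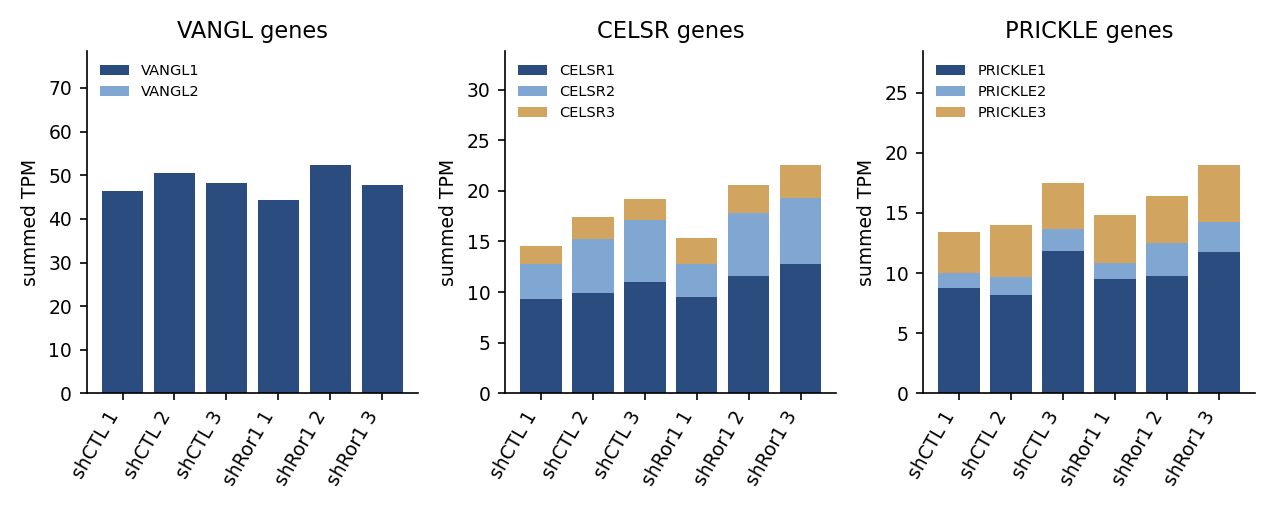
Summed TPM of the VANGL, CELSR and PRICKLE genes in each of the 6 libraries (bars, linear axis from 0), divided by gene. VANGL1 fills at least 99.96% of every VANGL bar, CELSR1 56.5% to 64.2% of the CELSR bars and PRICKLE1 58.7% to 67.5% of the PRICKLE bars, and the CELSR sum is 14.6 to 19.2 TPM in shCTL and 15.3 to 22.6 TPM in shRor1.

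Some values depend on how reads were assigned to overlapping genes. On the opposite strand, annotated exons of PRICKLE1 overlapped those of PPHLN1 by 438 bases (63.1 to 70.9 TPM), PRICKLE3 those of PLP2 by 434 bases (153 to 178 TPM) and ANKRD6 those of LYRM2 by 2362 bases (49.3 to 58.2 TPM). PRICKLE2 overlapped PRICKLE2-AS1 by 3362 bases, an antisense RNA of 0.07 to 0.15 TPM, and the other antisense RNAs that overlapped members had at most 0.50 TPM. On the same strand, the microRNA genes MIR4793 (65 bases in CELSR3) and MIR937 (18 bases in SCRIB) had 0 TPM and 0 to 2.26 TPM. The library kit keeps the strand, but whether the strand was used in counting is not given in the sources used here, so the levels of these 4 genes are uncertain to that extent. VANGL1, VANGL2, CELSR1 and CELSR2 shared no exonic base with another annotated gene, and no member shared a word of 50 bases with another member.

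shRor1 was compared with shCTL by limma on log2(TPM + 1) over all 16554 tested genes. Of the 9 tested PCP genes, 0 had an adjusted p below 0.05, as for all genes (0%), where 472 had an unadjusted p below 0.05. At this unadjusted level there was 1 PCP gene, CELSR3, against 2.85% of all genes tested (2.31% higher and 0.544% lower in shRor1). CELSR3 was also the 1 of 9 genes without overlap between the conditions, against 7.78% of all genes in either direction with 6.48% higher and 1.3% lower in shRor1. The numbers above are counts over genes of the same 6 libraries, and no test of the list was made.

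CELSR3 had a mean of 2.06 ± 0.19 TPM in shCTL and 2.84 ± 0.36 TPM in shRor1 (SD, n = 3 each). On the log2(TPM + 1) scale the difference was 0.33 (standard error 0.13, 95% confidence interval 0.018 to 0.63, limma adjusted p = 0.984). The exact two-sided permutation test gave p = 0.1, the smallest that 3 libraries against 3 allow. It was 0.23 after quantile normalization and 0.28 after median ratio scaling, and under either scaling the unadjusted p was no longer below 0.05. The same held without any 1 of 5 libraries, the first shRor1 library being the exception. PRICKLE2 had a log2 fold change of similar size, 0.32, with a wider interval from -0.17 to 0.81 (limma adjusted p = 0.984, exact permutation p = 0.3), and means of 1.51 ± 0.30 and 2.19 ± 0.77 TPM (SD, n = 3 each).

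For VANGL1 and SCRIB the interval was narrow around 0. The means of VANGL1 were 48.3 ± 2.10 and 48.1 ± 4.03 TPM (SD, n = 3 each), and its log2 fold change of -0.0078 had a 95% interval from -0.21 to 0.19, that is from 0.867 to 1.14 times the control (limma adjusted p = 0.994). SCRIB had means of 47.7 ± 2.53 and 48.1 ± 2.55 TPM (SD, n = 3 each), with a log2 fold change of 0.012 and an interval from 0.888 to 1.14 times the control (limma adjusted p = 0.994). These intervals are for single genes without adjustment, so their bounds are not limits of detection. Genes were called only after adjustment over all 16554 tested genes, and changes somewhat beyond the bounds could also go uncalled.

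Among the remaining 5 genes the log2 fold changes ran from 0.082 for CELSR2 to 0.15 for CELSR1, with PRICKLE3 at 0.099, PRICKLE1 at 0.11 and ANKRD6 at 0.11. The 95% interval of each included 0, with limma adjusted p of 0.984 for 4 of them and 0.987 for CELSR2 and exact permutation p from 0.3 to 0.6. The widest interval was that of CELSR2, from 0.690 to 1.62 times the control. VANGL2, which was too low for the model, had a mean of 0.0067 TPM in both conditions (exact permutation p = 1).

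**Figure D3:**
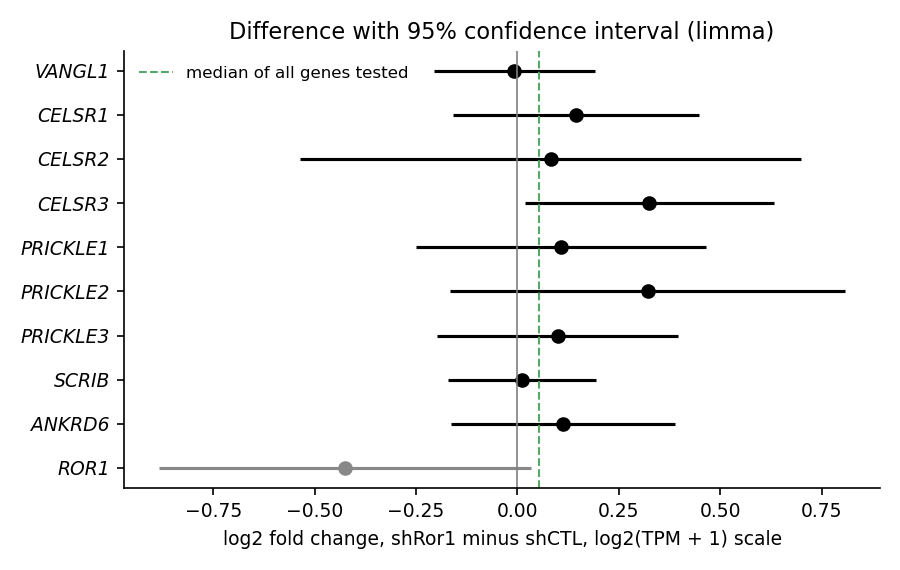
Log2 fold change of the 9 tested PCP genes and of ROR1 (gray), shRor1 minus shCTL, with 95% confidence intervals from limma (3 libraries each), and the median of all 16554 tested genes as a dashed line at 0.0545. The interval of CELSR3 alone lies above 0 (0.018 to 0.63), those of VANGL1 and SCRIB are the narrowest, and that of CELSR2 is the widest (-0.54 to 0.70).

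Of the 9 genes, 8 had a log2 fold change above 0, as did 67% of all tested genes, and the median was 0.11 against 0.0545 over all genes tested. This share followed the scaling, since after quantile normalization it was 6 of 9 with 50.5% of all genes, and after median ratio scaling 7 of 9 with 50.2%. The medians were then 0.030 and 0.052. With single libraries left out, 6 to 9 of the 9 genes were above 0, and the median ran from 0.043 without the third shRor1 library to 0.21 without the third shCTL library, where that of all genes was 0.025 and 0.079.

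The libraries also differed within a condition. The first library was the lowest in both conditions for 5 of the 9 genes, VANGL1, CELSR1, CELSR2, CELSR3 and PRICKLE2, and the third was the highest in both for 3, CELSR1, CELSR2 and PRICKLE1. The same counts over all tested genes were not made, so nothing particular to the PCP genes is read from them. The number of genes at 1 TPM or more was 16036, 16134 and 16597 in the 3 shCTL libraries and 16317, 16544 and 17033 in the 3 shRor1 libraries, so that the third library was also the richest in detected genes in each condition. Over all tested genes, the leading component of the deviations from the condition means took 40.8% of their variance and set the third library of both conditions (0.55 and 0.60) apart from the other 4 (-0.34 to -0.21). The part of this component in the levels of single genes was not tested. With it as a covariate, a fit chosen after the data were seen, the standard error of PRICKLE1 went from 0.15 to 0.084. That of CELSR1 went from 0.13 to 0.098 and that of ROR1 from 0.197 to 0.105. No PCP gene had an adjusted p below 0.05 (limma, lowest adjusted p = 0.732). Since the component was taken from the deviations of these same libraries, lower standard errors of genes that follow it were fixed in advance. The fold changes could not change.

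**Figure D4:**
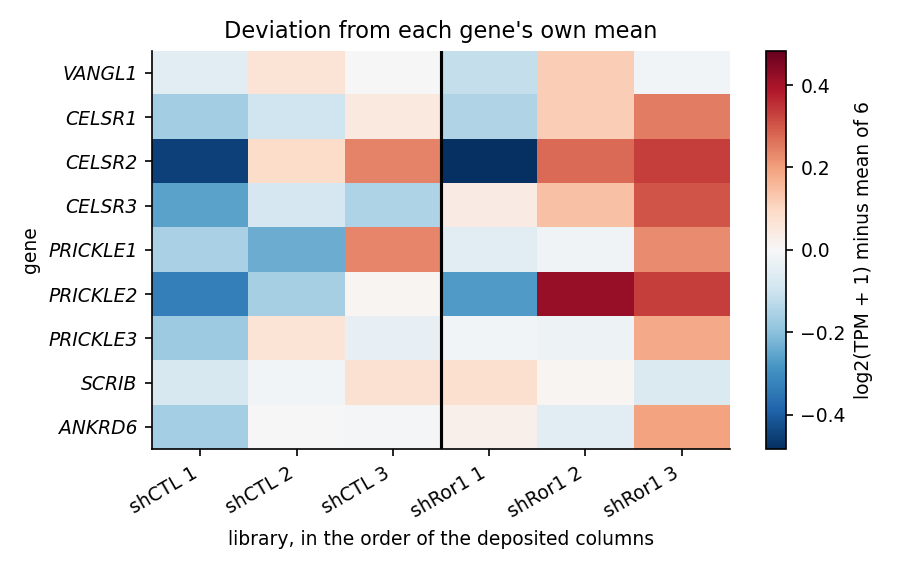
Deviation of log2(TPM + 1) from the mean of each gene over the 6 libraries, for the 9 tested PCP genes (rows) and the libraries in the order of the deposited columns, with blue below and red above the mean. CELSR2 is lowest in the first library of either condition (3.36 and 3.26 TPM), and CELSR3 is below its mean in all 3 shCTL libraries and above it in all 3 shRor1 libraries.

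For the 3 most abundant PCP genes, the tested genes with the most similar profile over the 6 libraries were listed by the root mean square difference of log2(TPM + 1) after centring. For VANGL1 these were DPP8, a dipeptidyl peptidase gene (0.019), the read-through gene ZNF670-ZNF695 (0.021) and RPL37A-DT (0.022). For SCRIB they were DOLPP1 (0.016), the lysosomal channel gene MCOLN1 (0.017) and the chaperone gene DNAJB1 (0.018), and for CELSR1 PDCD4-AS1 (0.018), the oncostatin M receptor gene OSMR (0.020) and WDR47 (0.021). Profiles over 6 libraries are easily matched, since 165, 156 and 159 genes lay within 0.05 of VANGL1, SCRIB and CELSR1.

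The other genes of the pathway were read from 7 lists with 58 genes, of which 57 were in the table (PRICKLE4 was not found by its identifier) and 47 were tested. None of the 7 lists held a gene with an adjusted p below 0.05 (limma). Of the 47 genes 1 had an unadjusted p below 0.05, a share of 2.13% against 2.85% of all genes, and 3 were higher in shRor1 without overlap, 6.38% against 6.48%, so that both shares were near the background. Among the Wnt ligands and receptors of the PCP branch, 8 of 10 were tested, with 4 above and 4 below 0. The latter include ROR1, the gene targeted by the shRNA. The 2 most abundant were PTK7, a PCP receptor of the kinase fold (63.2 TPM over all libraries, log2 fold change 0.069, standard error 0.10), and the Wnt receptor RYK (58.3 TPM, 0.0011, standard error 0.072). Dishevelled and DAAM genes, which pass the signal on to the cytoskeleton, had 4 of 5 tested, with 1 above and 3 below 0 and a median of -0.020. DVL1 was at 50.6 TPM (log2 fold change -0.033) and DVL2 at 44.6 TPM (-0.013). These directions followed the scaling, since after median ratio scaling 2 of 8 ligands and receptors and 0 of 4 Dishevelled and DAAM genes were above 0. With single libraries left out, 3 to 6 of the former and 0 to 3 of the latter were above 0.

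SCRIB works with DLG and LLGL in apicobasal polarity, and 18 of the 20 genes of this list were tested. Of these 16 lay above 0, where 67% of all tested genes did, with a median log2 fold change of 0.083, but 11 of 18 under quantile normalization as well as under median ratio scaling, with medians of 0.025 and 0.024. The count was 10 of 18 without the third shRor1 library (median 0.038), and the median was 0.16 without the first shRor1 library. DLG1 was at 61.9 TPM (log2 fold change 0.13, standard error 0.083) and PALS1, a scaffold of the Crumbs complex, at 52.9 TPM (0.10, standard error 0.11). DLG1, PALS1 and SCRIB thus had levels of the same order. Of the Fat and Dachsous genes, which form the second cadherin system of planar polarity, 3 of 7 were tested and all 3 lay above 0 (median 0.054). FAT1 was by far the highest at 98.3 TPM (log2 fold change 0.099), and FJX1 was at 30.3 TPM (0.054). Under either other scaling, and without the first shRor1 library, 1 of these 3 was above 0. DCHS1 and DCHS2 were at means of 0.15 TPM and 0.010 TPM in shCTL.

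The ciliogenesis and PCP effector genes had the highest list median, 0.21, with 4 of 5 tested and all 4 above 0. Of all tested genes 67% were above 0, with a median of 0.0545. WDPCP was at 9.38 ± 0.067 TPM in shCTL and 11.3 ± 0.93 TPM in shRor1 (SD, n = 3 each), without overlap (log2 fold change 0.24, standard error 0.10, limma adjusted p = 0.984), and was the 1 gene of the lists with an unadjusted p below 0.05. CPLANE1, at 7.02 TPM, differed by 0.24 on the log2 scale (standard error 0.18), with overlapping ranges. INTU, named here after its values were seen, did not overlap either (6.04 ± 0.29 and 7.0 ± 0.68 TPM, SD, n = 3 each, limma adjusted p = 0.984). With quantile normalization 3 of these 4 effector genes were above 0 (median 0.13), and with median ratio scaling all 4 (median 0.16). The count was also 3 without the first shCTL library (median 0.19) and without the third shRor1 library (median 0.14). Among the trafficking, kinase and turnover genes of PCP proteins all 8 were tested, 4 above and 4 below 0, with a median of 0.0024 (2 above 0 after median ratio scaling). Without the third shCTL library all 8 were above 0 (median 0.051), and without the second shRor1 library 7 were (median 0.090). SMURF2, a ubiquitin ligase that targets PRICKLE proteins, was at 135 ± 1.30 TPM in shCTL and 149 ± 8.39 TPM in shRor1 (SD, n = 3 each) without overlap (log2 fold change 0.15, limma adjusted p = 0.984), and CSNK1D at 125 TPM over all libraries (0.014). Of the other PET and LIM domain genes, relatives of PRICKLE, TES was at 50.1 TPM (log2 fold change -0.0062) and LMCD1 at 4.77 TPM (-0.027), a median of -0.016 with both below 0. This median was 0.12, with both above 0, without the first shRor1 library, and -0.17 without the third.

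**Figure D5:**
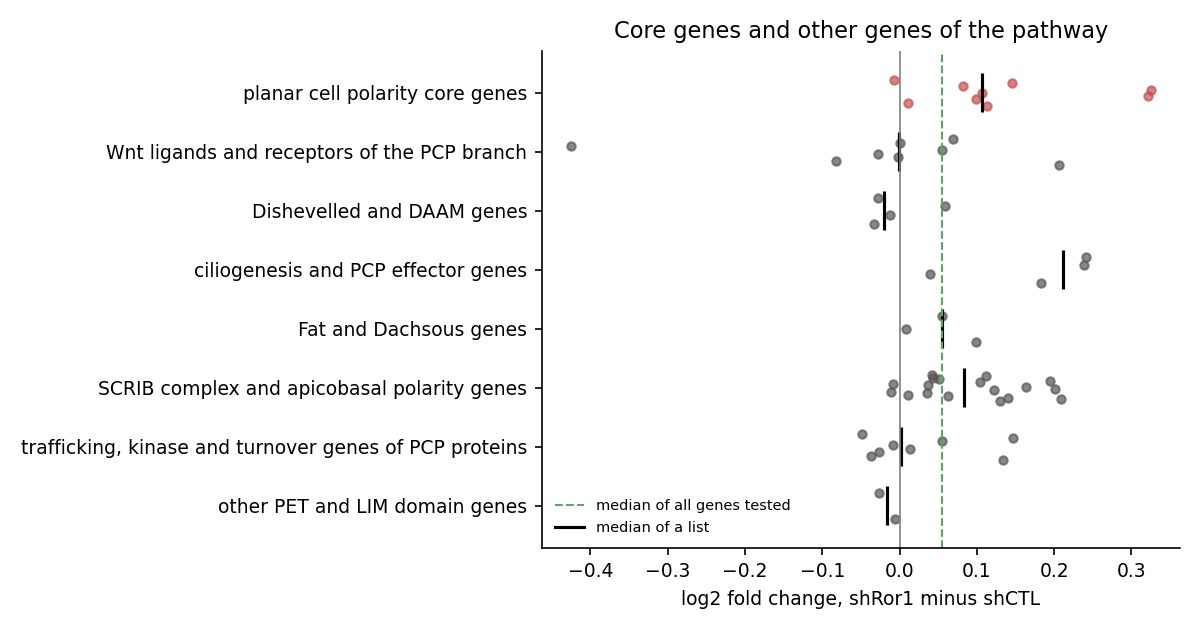
Log2 fold change (shRor1 minus shCTL) of each tested gene of the PCP core (red) and of the 7 lists of other pathway genes (gray), with a black bar at the median of a list and a dashed line at the median of all tested genes (0.0545). The core genes run from -0.0078 to 0.33, the ciliogenesis and PCP effector genes have the highest median (0.21), and the lowest single point is ROR1 at -0.43.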

How the data were processed

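Library preparation from total RNA used a strand-specific Illumina kit, and reads of 50 bases were sequenced. The authors mapped reads to GRCh37 with STAR and the Ensembl annotation and estimated abundances with RSEM (version 1.2.5 per the submitters' processing notes). Values in the table, as deposited, are TPM with 2 decimals, although its name speaks of expected counts, since each column sums to 1000000. TPM keeps no depth, and the values of a library are shares of a whole. The paper lists the mapped reads of each library, but the columns carry no replicate number to match them. Counting error was therefore not calculated. Nothing says that the 3 libraries of a condition came from separate cultures, so p-values measure the spread between these libraries, which may be technical. No pair of libraries had the same value in more than 0.48% of tested genes.

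Of 57445 genes, 16554 reached 1 TPM in 3 or more libraries. Their log2(TPM + 1) values were compared by limma (version 3.58.1, R version 4.3.3) with condition as the model, moderated variances that follow the mean level, and p-values adjusted by Benjamini-Hochberg (threshold 0.05). The pseudocount of 1 understates changes of low genes. A count model, as used by the authors, needs counts and was not used. With that model the paper reports a low number of significant genes, so the absence of called genes here is not the study's own count. The limma fit was tested on simulated data, in which most large changes were called. The smallest ones simulated, larger than any PCP difference with all 6 libraries, were not. The simulated noise was independent between genes, whereas these libraries share a component of variation. No power or rate of false calls in these libraries is therefore read from it. Single genes were compared with an exact two-sided permutation test of mean TPM over the 20 assignments of 3 against 3 libraries. Symbols came from the gene name table (55022 of 57445 identifiers matched), coordinates from the GENCODE annotation lifted to GRCh37, and promoters from RefSeq (GRCh38.p14). Coding sequences were aligned with Biopython 1.88. The PCP genes, the 7 lists, the markers and the tests were chosen with earlier results of these data known. Named are the PCP genes, ROR1, the 2 most abundant genes of each list, genes past the threshold, the 3 most similar genes of the 3 most abundant PCP genes, and genes whose exons overlap a PCP gene. Alternatives were no filter, a pseudocount of 0.1, other scalings, array weights, no trend, identifiers summed by symbol and each library left out. A further list of pathway genes and 1 marker are not reported here.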

Additional observations from a re-analysis of the deposited data

How the results depend on the processing

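No paired analysis was possible because the deposited columns carry no replicate number, so the block by replicate number was not run. Over 14 alternatives 0 PCP genes had an adjusted p below 0.05 (limma). The number of all genes past this threshold was 0 except without the third shRor1 library, where it was 1 (range 0 to 1 with each library left out), RPL39P3, named after its values were seen. The 1 PCP gene at an unadjusted p below 0.05 became 0 with quantile normalization and 0 with median ratio scaling, and with single libraries left out it ran from 0 to 2, the highest without the first shRor1 library (CELSR3 and PRICKLE2). It was 0 without any 1 of the other 5 libraries. The number without overlap between conditions was 1 and ran from 1 to 4 with each library left out. It was 4 of 9 without the first shRor1 library (CELSR1, CELSR2, CELSR3 and PRICKLE2), where 29.4% of all genes did not overlap, and 2 of 9 without the second or the third shCTL or the second shRor1 library, where 13.7%, 22.1% and 14.1% did not.

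CELSR1, CELSR3, PRICKLE1, PRICKLE2, PRICKLE3 and ANKRD6 kept their direction under all 14 alternatives, as did ROR1. CELSR3 had a log2 fold change from 0.23 to 0.44 and PRICKLE2 from 0.19 to 0.54 (lowest without the second and highest without the first shRor1 library). With quantile normalization PRICKLE3 fell to 0.0034 and ANKRD6 to 0.033. PRICKLE1 fell to 0.014 without the second shCTL library, and CELSR1 to 0.059 without the third shRor1 library. So near 0, a kept direction says little. No filter, no trend, identifiers summed by symbol and the covariate could not change these fold changes, so only the other alternatives bear on direction. The other 3 genes changed sign. With quantile normalization CELSR2 had -0.011 and SCRIB -0.019, with median ratio scaling SCRIB had -0.048, and with array weights VANGL1 had 0.019. With each library left out in turn VANGL1 ran from -0.069 to 0.049, SCRIB from -0.025 to 0.051 and CELSR2 from -0.12 to 0.34. The causes were not tested.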
